A study of Mus musculus with 12 samples.

Results

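The genes of the microRNA processing machinery were taken from the gene table of RNA-seq of ATDC5 cells with and without knockdown of *Ddx5*. They were the 9 genes with the symbols *Drosha*, *Dgcr8*, *Xpo5*, *Dicer1*, *Tarbp2*, *Ago1*, *Ago2*, *Ago3* and *Ago4*, of 46731 genes listed. ATDC5 is a mouse line from a teratocarcinoma, in use as a model of cartilage formation. The 4 groups of 3 libraries each were shRNA-NC and shRNA-*Ddx5* cells without stimulation, and the same cells stimulated with the cytokines IL-1β and TNF-α (shRNA-NC+cytokines and shRNA-*Ddx5*+cytokines), all labelled 6 h. All cells had been transduced with a lentivirus and selected with puromycin, the shRNA-NC cells with the vector used as negative control. The hairpin against *Ddx5* ran from a U6 promoter in a purchased construct, and the methods do not say whether the selected cells were a pool or a clone. The study describes its replicates as independent biological experiments, while the labels tie no library to a culture, and the p-values measure the spread between these libraries. The comparisons address how the genes that make and use microRNAs stood in cells with less *Ddx5*, whose product is a known cofactor of the Drosha complex.

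MicroRNAs begin as hairpins in long primary transcripts, many of them in the introns of other genes. In the nucleus the Microprocessor, made of the RNase III enzyme Drosha and its RNA-binding partner Dgcr8, cuts the hairpin out, and the RNA helicases Ddx5 and Ddx17 associate with it and aid the cleavage of some primary transcripts. Exportin-5 (Xpo5) carries the precursor to the cytoplasm, where Dicer1 with its partner Tarbp2 cuts it to a short duplex. An Argonaute protein (Ago1 to Ago4) keeps a strand of this duplex and is led to target mRNAs by the seed, the bases from position 2 to 8 of that strand. In mice Ago2 is the Argonaute best known to slice its target. In cartilage the pathway is known for miR-140, whose hairpin lies in *Wwp2*. These libraries were made from poly(A) RNA and selected for long fragments, so they measured mRNAs and host transcripts and not mature microRNAs.

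The mature microRNAs shown here are a selection from those whose host genes, members of lists described further on, were higher or lower in shRNA-*Ddx5* cells. The sequences for other hosts that were called are left out, among them miR-126 in *Egfl7*, which was also lower. The sequences are from RefSeq (GRCm38.p6), run 5′ to 3′, and have the seed in capitals. Both arms of miR-3064 are shown because its hairpin lies inside *Ddx5* itself. The others shown fall into groups by seed, a grouping within this selection and not over all hosts that were called. The hosts of miR-152 and miR-148b, *Copz2* and *Copz1*, were both higher in shRNA-*Ddx5* cells, and the hosts of miR-15b, miR-15a and miR-16, *Smc4* and *Dleu2*, were both lower. miR-140-3p is given for its known role in cartilage.
mmu-miR-3064-5p: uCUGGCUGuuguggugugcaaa
mmu-miR-3064-3p: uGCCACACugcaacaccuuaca
mmu-miR-152-3p: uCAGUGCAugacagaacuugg
mmu-miR-148b-3p: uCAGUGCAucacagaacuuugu
mmu-miR-15b-5p: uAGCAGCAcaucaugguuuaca
mmu-miR-15a-5p: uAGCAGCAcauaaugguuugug
mmu-miR-16-5p: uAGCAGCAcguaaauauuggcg
mmu-miR-140-3p: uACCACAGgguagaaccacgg
The seed CAGUGCA is shared by miR-152-3p and miR-148b-3p, and AGCAGCA by the 3 sequences of the miR-15/16 family.

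The deposited values were FPKM, fragments scaled to gene length and library depth, so levels of different genes could be set side by side. The depth recovered from the FPKM was 14119199 to 19276520 fragments assigned to genes in a library. Correlations of the log2 values were 0.973 to 0.993 between libraries of the same group and 0.897 to 0.961 between groups. *Ddx5* itself stood at 325, 337 and 294 FPKM in shRNA-NC and at 90.7, 118 and 99.9 FPKM in shRNA-*Ddx5* libraries, and at 327, 302 and 301 FPKM against 101, 93.6 and 104 FPKM with cytokines, so every library went with its label. Of 9 cartilage markers only *Sox9*, *Sox5* and *Col2a1* were measured above the filter, at means of 27.5, 1.75 and 12.4 FPKM in shRNA-NC, and *Acan* had at most 4 fragments in any library. Among markers of other cell types, *Ptprc* (blood), *Cdh5* (endothelium) and *Epcam* (epithelium) had no fragment in any library and *Pecam1* at most 7. *Col2a1*, the main collagen gene of cartilage, stood at 0.899 FPKM in shRNA-*Ddx5* cells, so this marker moved with the knockdown, and its part in the other results was not tested. In bulk RNA, fewer cells of a kind and less RNA per cell cannot be told apart.

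The 9 genes differed widely in level. Over the 12 libraries the mean was highest for *Xpo5*, at 44.1 FPKM, followed by *Drosha* at 24.1 FPKM and *Ago2* at 17.9 FPKM. *Tarbp2* at 8.72, *Dgcr8* at 8.55 and *Dicer1* at 5.68 FPKM formed a middle range. The other Argonaute genes were the lowest, *Ago1* at 3.33, *Ago3* at 0.9747 and *Ago4* at 0.259 FPKM, the last from only 8 to 95 fragments per library. Each gene was above the next in this order in 12 of 12 libraries, except that *Tarbp2* was above *Dgcr8* in 6 of 12. The order of these 2 genes went with the knockdown. *Dgcr8* was above *Tarbp2* in every shRNA-NC library, and *Tarbp2* was above *Dgcr8* in every shRNA-*Ddx5* library. The ranges over all libraries also overlapped for *Drosha* and *Ago2*, *Dgcr8* and *Dicer1*, *Dicer1* and *Ago1*, and *Ago3* and *Ago4*, although within every library the order was the same.

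**Figure D1:**
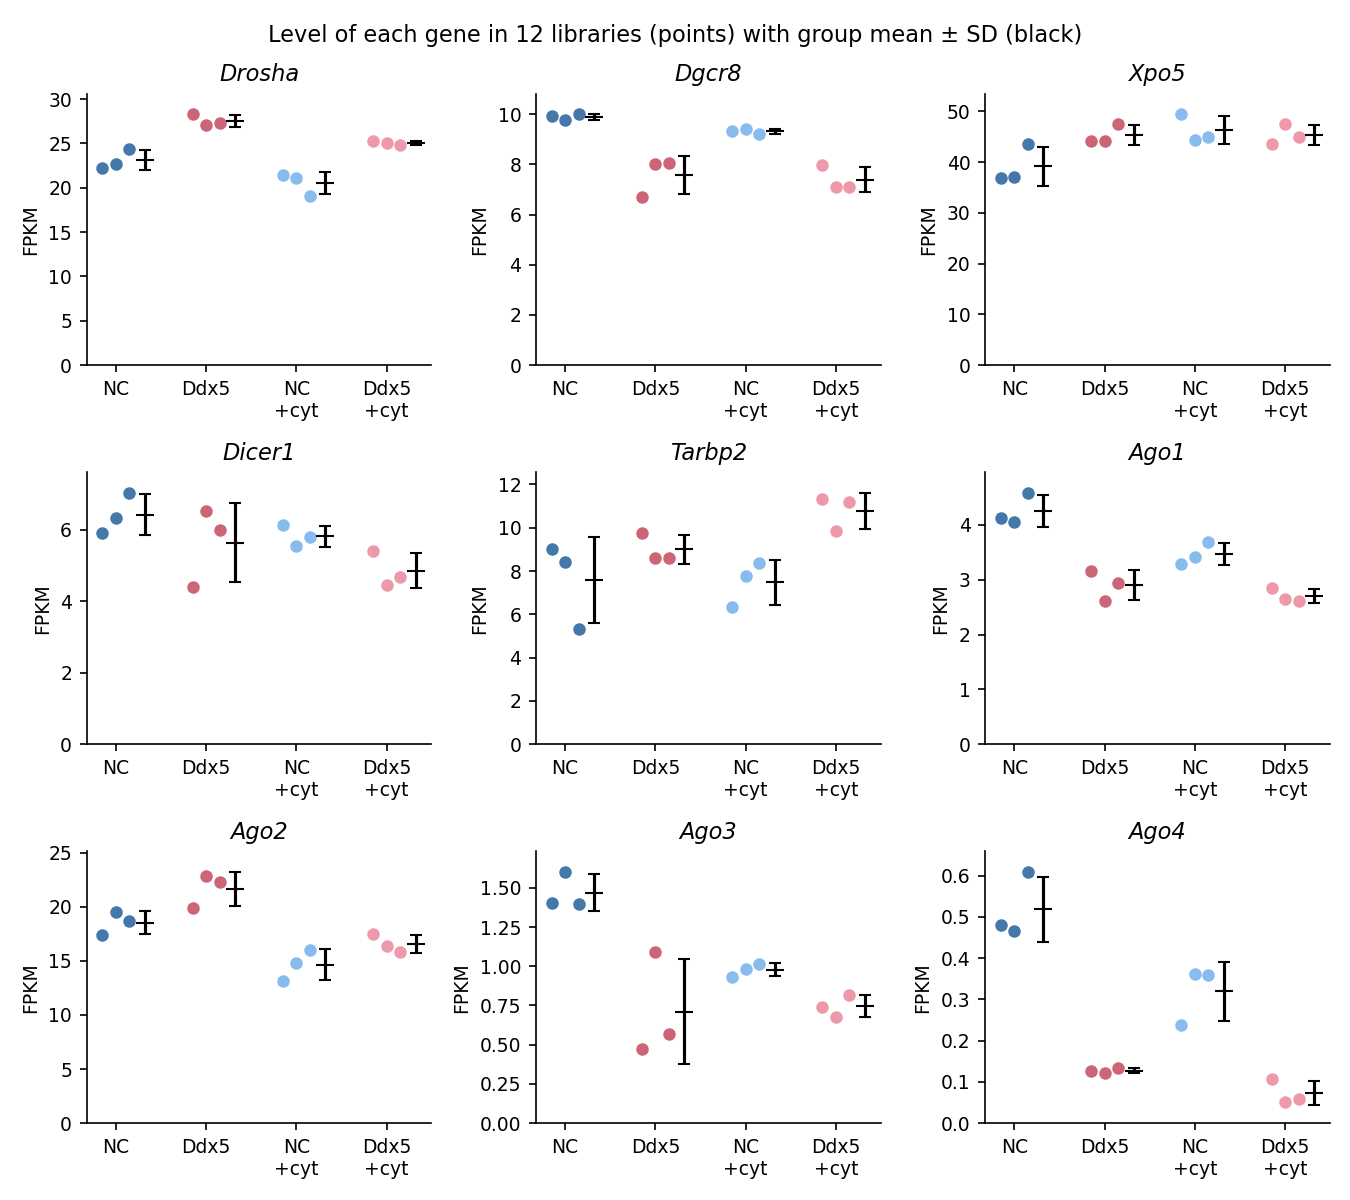
FPKM (linear axis from 0) of each of the 9 genes in the 12 libraries, 3 points per group in the order of replicates 1 to 3, with the group mean ± SD in black; NC and Ddx5 are the shRNA-NC and shRNA-Ddx5 groups and +cyt those with IL-1β and TNF-α. *Dgcr8*, *Ago1*, *Ago3* and *Ago4* were lower and *Drosha* higher in every shRNA-Ddx5 library than in every shRNA-NC library of the same medium. Over all genes tested, the groups did not overlap for 53.5% in medium alone and 61.6% with cytokines.

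Both Microprocessor subunits differed between shRNA-*Ddx5* and shRNA-NC cells, in opposite directions. *Drosha* (gene 14000, chromosome 15, 12824893 to 12935377 on the plus strand of GRCm39) encodes the enzyme that cuts the primary transcript. It stood at 22.2, 22.7 and 24.4 FPKM in shRNA-NC and at 28.4, 27.0 and 27.3 FPKM in shRNA-*Ddx5* libraries. With cytokines it stood at 21.5, 21.1 and 19.1 FPKM against 25.3, 25.1 and 24.9 FPKM. In each medium all 3 shRNA-*Ddx5* libraries were above all 3 shRNA-NC libraries. The group means were 119% of shRNA-NC in medium alone and 122% with cytokines. In limma across 12368 genes, on log2(FPKM + 1) and with Benjamini-Hochberg adjustment, the differences were 0.25 ± 0.068 (log2, SE; adjusted p = 0.012) and 0.28 ± 0.068 (adjusted p = 0.0064). In medium alone this rise was 0.15 with an adjusted p of 0.084 after quantile normalization, 0.15 (0.079) with the sum of fragments as denominator and 0.16 (0.096) with voom, so that it kept its sign and not its call, whereas with cytokines the call was kept under all 3.

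*Dgcr8* (gene 94223, chromosome 16, 18071812 to 18107115 on the minus strand) encodes the double-stranded RNA-binding partner of Drosha. It stood at 9.94, 9.75 and 10 FPKM in shRNA-NC and at 6.71, 8.02 and 8.04 FPKM in shRNA-*Ddx5* libraries, and with cytokines at 9.33, 9.40 and 9.22 FPKM against 7.98, 7.11 and 7.09 FPKM. The shRNA-NC libraries lay close together in both media and every shRNA-*Ddx5* library lay below them. The means were 76.7% of shRNA-NC in medium alone and 79.4% with cytokines, and *Dgcr8* fell by 0.35 ± 0.08 (log2, SE; limma, adjusted p = 0.0043) and by 0.30 ± 0.08 (adjusted p = 0.0099). These calls were lost under none of the alternatives tried. The ratio of *Dgcr8* to *Drosha* FPKM, which does not depend on the scaling between libraries, was 0.429 ± 0.0184 (SD, n = 3) in shRNA-NC, 0.276 ± 0.0342 in shRNA-*Ddx5*, 0.455 ± 0.0257 in shRNA-NC+cytokines and 0.295 ± 0.0181 in shRNA-*Ddx5*+cytokines. The highest ratio of any shRNA-*Ddx5* library, 0.316, lay below the lowest of any shRNA-NC library, 0.410. No test was made of this ratio, since it was formed from members that had been seen to move apart, and 3 libraries against 3 cannot give an exact permutation p under 0.1.

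*Xpo5*, *Dicer1* and *Tarbp2*, which act after the Microprocessor, did not share a direction. *Xpo5* (gene 72322, chromosome 17), the exporter of precursors, stood at 36.9, 37.1 and 43.6 FPKM in shRNA-NC and at 44.2, 44.2 and 47.6 FPKM in shRNA-*Ddx5* libraries. On the deposited FPKM the groups did not overlap, but the difference of 0.21 ± 0.083 (log2, SE) missed the threshold (limma, adjusted p = 0.059), which it passed without shRNA-NC replicate 3 (0.29, adjusted p = 0.012) or shRNA-NC+cytokines replicate 1 (0.044). With the sum of fragments as denominator the log2 differences of all genes in medium alone shifted by a median of -0.09. A gap as small as that of *Xpo5* therefore depends on the scaling. With cytokines *Xpo5* stood at 49.6, 44.4 and 45.0 FPKM against 43.6, 47.5 and 45.0 FPKM, groups that overlapped throughout, and the difference was -0.03 with a 95% interval of -0.21 to 0.15.

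*Dicer1* (gene 192119, chromosome 12), the cytoplasmic RNase III enzyme that cuts the precursor, stood at 5.91, 6.31 and 7.03 FPKM in shRNA-NC and at 4.40, 6.51 and 5.99 FPKM in shRNA-*Ddx5* libraries. With cytokines it stood at 6.12, 5.54 and 5.78 FPKM against 5.40, 4.46 and 4.67 FPKM. The groups overlapped in medium alone and not with cytokines. The log2 differences were -0.17 (95% interval -0.44 to 0.094; limma, adjusted p = 0.27) and -0.22 (-0.49 to 0.042; adjusted p = 0.15), both intervals reaching from a fall to just above 0.

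*Tarbp2* (gene 21357, chromosome 15), which encodes the RNA-binding partner of Dicer1, stood at 9.03, 8.42 and 5.32 FPKM in shRNA-NC and at 9.76, 8.62 and 8.62 FPKM in shRNA-*Ddx5* libraries. The third shRNA-NC library, the shallowest of all, was the lowest of the 12 for *Tarbp2*, and the groups otherwise lay near each other (difference 0.25 ± 0.159; adjusted p = 0.23). With cytokines it stood at 6.33, 7.77 and 8.36 FPKM in shRNA-NC and at 11.3, 9.83 and 11.2 FPKM in shRNA-*Ddx5* cells. These groups did not overlap and *Tarbp2* rose by 0.48 ± 0.159 (limma, adjusted p = 0.028), to 144% of shRNA-NC. The adjusted p was 0.065 without the filter on low values, 0.057 with the sum of fragments as denominator, 0.1 without shRNA-NC+cytokines replicate 1, 0.084 without shRNA-*Ddx5*+cytokines replicate 1 and 0.078 without its replicate 3.

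The Argonaute genes divided by member. *Ago1* fell in shRNA-*Ddx5* cells in both media and *Ago3* in medium alone, *Ago4* was too low for the main test, and *Ago2*, the most abundant, did not pass in either medium. *Ago1* (gene 236511) stood at 4.12, 4.04 and 4.59 FPKM in shRNA-NC and at 3.16, 2.61 and 2.94 FPKM in shRNA-*Ddx5* libraries, and with cytokines at 3.29, 3.42 and 3.69 FPKM against 2.84, 2.65 and 2.61 FPKM. The groups did not overlap in either medium. *Ago1* fell by 0.43 ± 0.083 (log2, SE; limma, adjusted p = 0.0015), to 68.3% of shRNA-NC, and with cytokines by 0.27 ± 0.083 (adjusted p = 0.02), to 78.0%. The second of these calls was lost after quantile normalization (0.071) and without shRNA-NC+cytokines replicate 3 (0.073), shRNA-*Ddx5*+cytokines replicate 2 (0.063) or its replicate 3 (0.066).

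*Ago3* (gene 214150) stood at 1.40, 1.603 and 1.40 FPKM in shRNA-NC and at 0.470, 1.09 and 0.569 FPKM in shRNA-*Ddx5* libraries, with replicate 2 well above the others. The groups did not overlap, the group mean was 48.4% of shRNA-NC, and *Ago3* fell by 0.55 ± 0.123 (log2, SE; limma, adjusted p = 0.0038). *Ago3* reached 1 FPKM in all shRNA-NC libraries and otherwise only in shRNA-*Ddx5* replicate 2 and shRNA-NC+cytokines replicate 3. It thus passed the filter through the group where it was high, so this call is no independent support for a fall. With cytokines *Ago3* stood at 0.932, 0.985 and 1.01 FPKM against 0.742, 0.678 and 0.816 FPKM. The groups did not overlap, with the mean at 76.3% of shRNA-NC, but the difference of -0.18 ± 0.123 did not pass (adjusted p = 0.26).

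*Ago4* (gene 76850) did not reach 1 FPKM in any library and was not among the genes tested. It had 95, 91 and 88 fragments in shRNA-NC and 20, 21 and 23 in shRNA-*Ddx5* libraries, and with cytokines 38, 65 and 65 against 17, 8 and 9. In FPKM these were 0.480, 0.466 and 0.609 against 0.127, 0.121 and 0.133, and 0.237, 0.361 and 0.360 against 0.107, 0.0523 and 0.0595. The means were 24.5% and 22.9% of shRNA-NC, the largest relative difference of the 9 genes in either medium, and the groups were far apart in both. When every gene with a fragment was kept, an alternative with 27209 genes, *Ago4* fell by 0.43 ± 0.048 (limma, adjusted p = 0.00018) and by 0.30 ± 0.048 (adjusted p = 0.0015). A pseudocount of 1 FPKM understates changes at this level, and with 0.1 FPKM the falls were 1.44 ± 0.218 (adjusted p = 0.00093) and 1.28 ± 0.218 (adjusted p = 0.0019).

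*Ago2* (gene 239528, chromosome 15), which encodes the slicing Argonaute, stood at 17.4, 19.5 and 18.7 FPKM in shRNA-NC and at 19.9, 22.8 and 22.3 FPKM in shRNA-*Ddx5* libraries. On the deposited FPKM the groups did not overlap and the difference of 0.21 ± 0.088 (log2, SE) missed the threshold (limma, adjusted p = 0.065), which it passed without shRNA-*Ddx5* replicate 1 (0.035) or shRNA-NC+cytokines replicate 1 (0.038). As for *Xpo5*, a gap this small depends on the scaling, which shifted all genes by a median of -0.09 with the sum of fragments as denominator. With cytokines *Ago2* stood at 13.2, 14.8 and 16.0 FPKM against 17.5, 16.4 and 15.9 FPKM, where the groups overlapped (0.17 ± 0.088, adjusted p = 0.13). The FPKM of the 4 Argonaute genes added up to 24.8 ± 1.18 (SD, n = 3) in shRNA-NC and 25.4 ± 1.57 in shRNA-*Ddx5*, and with cytokines to 19.4 ± 1.73 and 20.1 ± 0.966, so the sum differed by less than its spread. Its make-up did not stay the same. *Ago2* held 74.8 ± 1.18% of the sum in shRNA-NC, 85.2 ± 1.00% in shRNA-*Ddx5*, 75.4 ± 0.662% in shRNA-NC+cytokines and 82.5 ± 0.468% in shRNA-*Ddx5*+cytokines. *Ago1*, *Ago3* and *Ago4* together fell from 6.24 ± 0.315 to 3.74 ± 0.0937 FPKM in medium alone and stood at 4.76 ± 0.301 against 3.52 ± 0.157 FPKM with cytokines. These shares are a description of genes chosen with their values known, and no test was made of them.

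**Figure D2:**
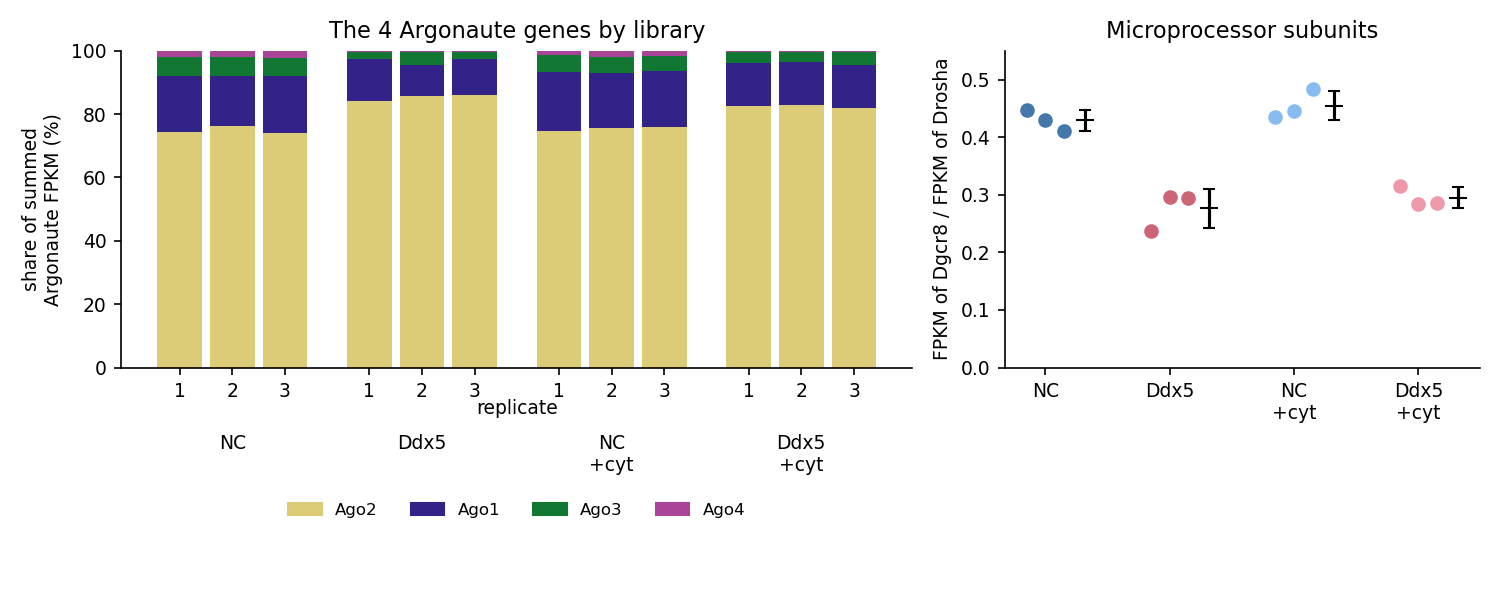
Left, share of each Argonaute gene (%) in the summed FPKM of the 4 genes, 1 bar per library; right, FPKM of *Dgcr8* divided by FPKM of *Drosha* in each library, with the group mean ± SD in black. The share of *Ago2* lay at 73.9 to 76.1% in the 6 shRNA-NC libraries and at 82.0 to 86.0% in the 6 shRNA-Ddx5 libraries, and the ratio at 0.410 to 0.484 against 0.237 to 0.316.

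*Ago3*, *Ago1* and *Ago4*, whose means were all lower in shRNA-*Ddx5* cells, lie next to each other on the minus strand of chromosome 4 (GRCm39), *Ago3* from 126220797 to 126323360, *Ago1* from 126328805 to 126362500 and *Ago4* from 126383280 to 126427379. Only 5444 bases separate *Ago3* from *Ago1*, and 20779 bases separate *Ago1* from *Ago4*. *Ago2* is on another chromosome. Their neighbours were looked at after these values had been seen. Within 300000 bases on either side 13 other genes were tested (of 30 named). In medium alone 4 of them were higher in shRNA-*Ddx5* cells, 2 were lower (*Lsm10* and *Stk40*) and 7 did not pass, and with cytokines 3 were higher, none was lower and 10 did not pass. Among all genes 25.3% were higher and 21.7% lower in medium alone, and 23.5% and 22.1% with cytokines. The call of *Stk40* was lost without shRNA-NC replicate 1 (0.075) or shRNA-*Ddx5* replicate 2 (0.068). With cytokines *Lsm10* was called lower with only the libraries compared (0.047) and without shRNA-*Ddx5* replicate 3 (0.032), and the higher call of *Clspn* was lost in 6 alternatives (adjusted p of 0.053 to 0.074). The nearest tested genes on either side, *Adprhl2* (0.066 ± 0.17 in medium alone, 0.078 ± 0.17 with cytokines, log2, SE) and *Clspn* (-0.035 ± 0.096 and 0.32 ± 0.096), were not called lower in either medium.

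**Figure D3:**
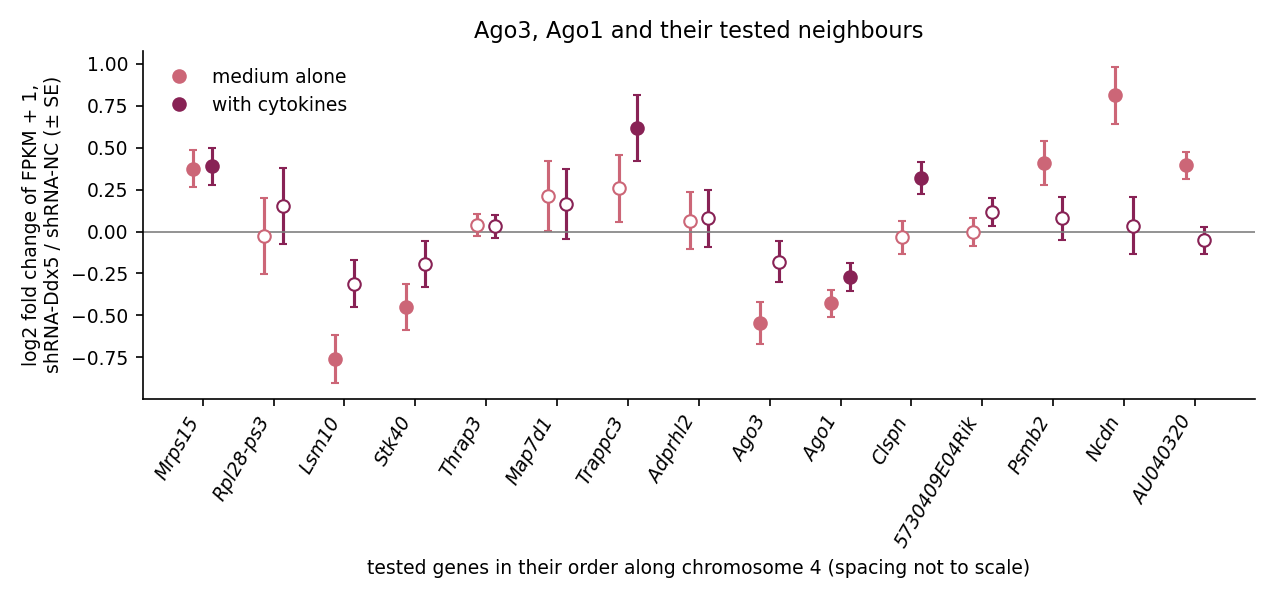
Log2 fold change of FPKM + 1 (± SE), shRNA-Ddx5 over shRNA-NC, for *Ago3*, *Ago1* and the 13 tested genes around them in their order along chromosome 4 (spacing not to scale); filled points passed an adjusted p of 0.05. *Ago3* and *Ago1* lay below 0 in both media. Of the nearest tested genes, *Adprhl2* lay above 0 in both, and *Clspn* lay at -0.035 in medium alone and 0.32 with cytokines. *Ago4*, below the filter on low values, is not shown.

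The promoters of these 3 genes are shown because the genes lie together, and because Ddx5 is known to unfold G-quadruplexes. They run from 250 bases before to 50 bases after the RefSeq start on the minus strand of GRCm38.p6, another build than that of the FPKM table, and *Ago1* has 2 such starts, of which the first listed is given. Capitals mark a G-quadruplex motif, 4 runs of at least 3 G separated by 1 to 7 bases, searched on both strands (as runs of C on the strand shown).
Ago3, chr4:126429493-126429792: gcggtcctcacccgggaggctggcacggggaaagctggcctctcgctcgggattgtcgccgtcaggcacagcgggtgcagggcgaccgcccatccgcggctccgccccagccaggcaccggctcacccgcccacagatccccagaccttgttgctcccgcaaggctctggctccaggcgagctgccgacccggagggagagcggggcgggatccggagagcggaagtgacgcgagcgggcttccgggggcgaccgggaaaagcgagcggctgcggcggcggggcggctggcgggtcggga
Ago1, chr4:126468582-126468881: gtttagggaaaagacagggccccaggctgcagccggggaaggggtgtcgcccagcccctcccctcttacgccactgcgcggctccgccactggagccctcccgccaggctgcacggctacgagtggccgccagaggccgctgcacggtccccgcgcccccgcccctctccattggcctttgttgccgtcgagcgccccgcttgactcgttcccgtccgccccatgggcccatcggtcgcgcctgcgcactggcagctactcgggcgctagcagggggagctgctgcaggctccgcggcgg
Ago4, chr4:126533409-126533708: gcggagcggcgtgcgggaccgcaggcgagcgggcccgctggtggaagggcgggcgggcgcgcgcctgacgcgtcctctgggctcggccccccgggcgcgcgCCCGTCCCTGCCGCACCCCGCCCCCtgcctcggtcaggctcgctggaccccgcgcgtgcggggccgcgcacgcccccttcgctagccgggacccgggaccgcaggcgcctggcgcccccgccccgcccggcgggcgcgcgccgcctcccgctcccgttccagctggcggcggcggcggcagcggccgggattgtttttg
The motif was found in the *Ago4* promoter and in neither of the other 2, nor at the second start of *Ago1*. Of the 9 promoters matched for 8 of the 9 genes (none matched for *Ago2*), those of *Ago4*, *Dicer1* and *Xpo5* held it, 3 of 9, against 18.6% of 32851 mouse promoters of the same length. The GC content of the 3 promoters shown was 74.7%, 73.0% and 83.3%, against a median of 52.7% over all promoters. A match of letters is not a measured structure. The G-quadruplex that the study resolved in the *Col2* promoter has 2 layers built from runs of 2 G. A search for runs of at least 3 G cannot find that kind, so its presence in these promoters was not tested.

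Over the 8 genes tested, the counts past the threshold were close to those of genes at large. In medium alone 1 was higher in shRNA-*Ddx5* cells (*Drosha*), against 25.3% of all 12368 genes, and 3 were lower (*Dgcr8*, *Ago1* and *Ago3*), against 21.7%. *Ago3* passed the filter only through its shRNA-NC values. With at least 1 FPKM required in all 12 libraries, which leaves *Ago3* out, 3 genes were called in medium alone. With cytokines 2 were higher (*Drosha* and *Tarbp2*), against 23.5%, and 2 were lower (*Dgcr8* and *Ago1*), against 22.1%. The groups did not overlap for 6 of 8 genes in medium alone, where this held for 53.5% of all genes, and for 6 of 8 with cytokines, against 61.6%. The median log2 difference over the 8 genes was 0.018 in medium alone and -0.10 with cytokines, beside 0.028 and 0.01 over all genes. Counts so near the background are not a result about these genes as a set. With the sum of fragments as denominator the share of higher genes among all calls in medium alone was 42.5% in place of 53.8%.

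**Figure D4:**
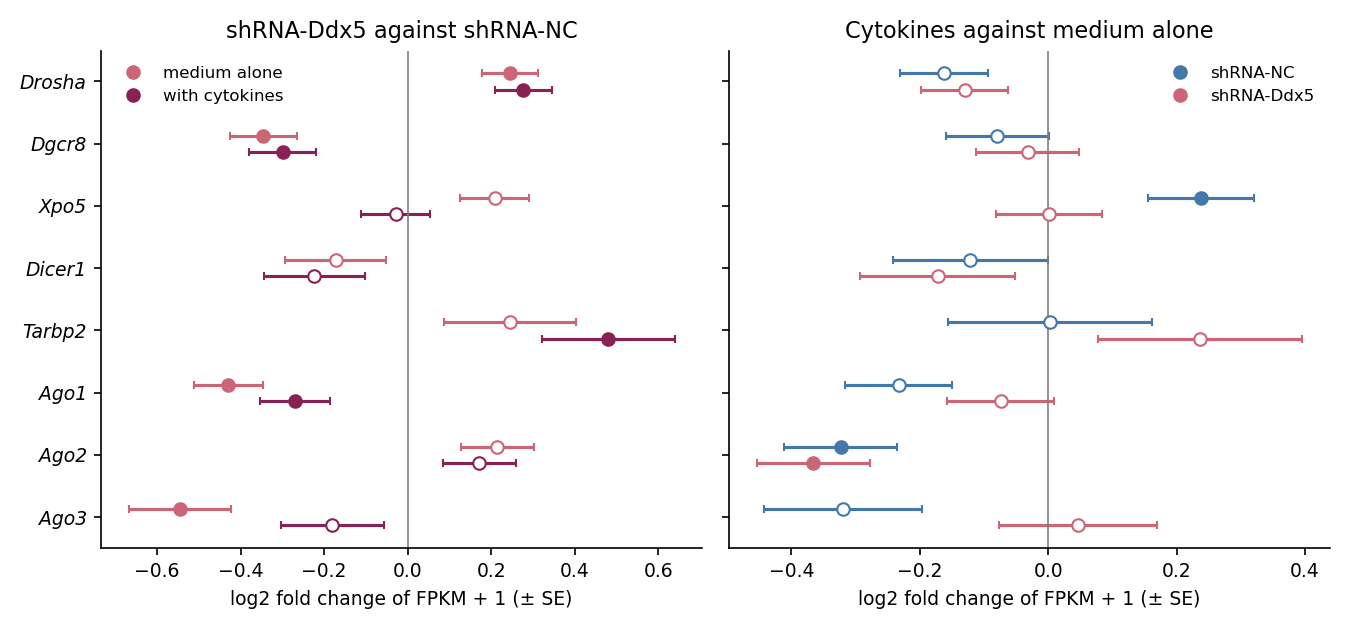
Log2 fold change of FPKM + 1 (± SE) of the 8 genes tested, left for shRNA-Ddx5 against shRNA-NC in each medium and right for cytokines against medium alone in each line; filled points passed an adjusted p of 0.05. *Drosha* lay above and *Dgcr8* and *Ago1* below 0 in both media on the left, and *Ago2* was the only gene to pass in both lines on the right.

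The effect of the cytokines was read within each line. Cartilage markers also moved with cytokines, as given above, and their part in this effect was not tested. In shRNA-NC cells 1 of 8 was higher with cytokines (*Xpo5*, 0.24 ± 0.083, log2, SE; limma, adjusted p = 0.046), against 18.6% of all genes, and 1 was lower (*Ago2*), against 15.2%. The rise of *Xpo5* was 0.07 with an adjusted p of 0.56 after quantile normalization and missed the threshold in most alternatives. *Ago2* fell by 0.32 ± 0.088 (adjusted p = 0.015) in shRNA-NC cells and by 0.37 ± 0.088 (adjusted p = 0.0096) in shRNA-*Ddx5* cells, where it was the only one of 8 to be lower, against 13.5% of all genes lower and 13.5% higher. All 6 libraries with cytokines stood between 13.2 and 17.5 FPKM for *Ago2* and all 6 without between 17.4 and 22.8 FPKM. Without shRNA-NC replicate 2 the fall in shRNA-NC cells had an adjusted p of 0.061. *Ago1*, *Ago3* and *Drosha* were also lower with cytokines in every shRNA-NC library and missed the threshold (-0.23, adjusted p = 0.05; -0.32, 0.067; -0.16, 0.088), and *Ago4* stood at 0.319 ± 0.0714 against 0.519 ± 0.0791 FPKM (SD, n = 3). *Drosha* passed after quantile normalization (0.0065), with the sum of fragments (0.014) and with voom (0.017), *Ago1* passed in 6 alternatives (0.011 to 0.044) and *Ago3* in 5 (0.015 to 0.047). Among all calls in shRNA-NC cells 55.1% were higher with cytokines, and 43.4% after quantile normalization. In shRNA-*Ddx5* cells 1671 genes were higher and 1673 lower with cytokines, and after quantile normalization 1398 and 2183.

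Whether the knockdown effect differed between the media was tested as the interaction. In limma 0 of the 8 genes passed, against 8.21% of all genes, and 0 had an unadjusted p under 0.05, while voom gave 0 after adjustment and 1 before it. The differences of the effects, with cytokines minus in medium alone, ran from -0.24 ± 0.118 for *Xpo5* (log2, SE; adjusted p = 0.25) to 0.37 ± 0.174 for *Ago3* (adjusted p = 0.23). For *Ago3* the difference was 0.52 (adjusted p = 0.034) without shRNA-*Ddx5* replicate 2, the library in which *Ago3* was highest in its group.

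Genes around the pathway were read from lists of known cofactors and partners. Of 19 cofactors of primary transcript processing, 5 were higher and 3 lower in shRNA-*Ddx5* cells in medium alone, and 3 were higher and 3 lower with cytokines. Their median log2 differences were -0.053 and 0.082, beside 0.028 and 0.01 over all genes. Over all 12368 genes 25.3% were higher and 21.7% lower in medium alone, and 23.5% and 22.1% with cytokines. Among the cofactors *Ddx5* was lower by design. Its paralogue *Ddx17*, the other helicase of the Drosha complex, stood at 46.0, 48.7 and 44.7 FPKM in shRNA-NC and at 99.3, 92.3 and 95.9 FPKM in shRNA-*Ddx5* libraries, a rise of 1.03 ± 0.092 (log2, SE; limma, adjusted p = 9.2e-06), and with cytokines it rose by 1.52 ± 0.092 (adjusted p = 7.7e-07), from a mean of 30.2 to 87.96 FPKM. Fragments of paralogues can be shared where their sequences match. *Ncbp2*, the cap-binding subunit that links capped RNA to processing, rose in both media (0.72 and 0.52). *Erh*, a small partner of Dgcr8, rose in medium alone (0.66 ± 0.104, adjusted p = 0.00042), and *Mettl3*, which methylates primary transcripts, fell with cytokines (-0.36 ± 0.08, adjusted p = 0.0039). Both were named after their values had been seen.

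Of 5 partners of export and of Dicer, *Ran*, the GTPase that loads exportin-5 with its cargo, rose in both media. It stood at a mean of 238 FPKM in shRNA-NC and 463 FPKM in shRNA-*Ddx5* (0.96 ± 0.098, log2, SE; adjusted p = 2.2e-05), and at 339 against 510 FPKM with cytokines (0.59 ± 0.098, adjusted p = 0.00056). *Adar*, the editor of double-stranded RNA, fell in medium alone (-0.49 ± 0.089, adjusted p = 0.00095; named after its values had been seen), and the others did not pass. Of 14 genes of precursor and microRNA turnover 12 were tested, and 1 was higher and 2 lower in medium alone, 3 higher and 4 lower with cytokines. The shares of all genes were 25.3% higher and 21.7% lower in medium alone, and 23.5% and 22.1% with cytokines. *Snd1*, a nuclease also known as Tudor-SN, was higher in both media (0.27 and 0.31), but in medium alone the call was lost after quantile normalization (0.094, adjusted p = 0.27), with the sum of fragments (0.18, 0.059) and with voom (0.18, 0.068). *Lin28a* had no fragment and *Lin28b* at most 4 in any library. The median log2 differences of this list were -0.013 and -0.18.

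Of 20 Argonaute partners and loading chaperones 19 were tested. In medium alone 4 were higher and 7 lower, and with cytokines 4 were higher and 5 lower, with median log2 differences of 0.088 and -0.024. Beside these counts, and those for deadenylation and decapping below, 25.3% of all genes were higher and 21.7% lower in medium alone. With cytokines the shares of all genes were 23.5% and 22.1%. The HSP90 genes, whose products hold Argonaute open for loading, were lower in both media, *Hsp90aa1* by 0.77 and 0.95 and *Hsp90ab1* by 0.62 and 0.65 on the log2 scale, as was *Fxr1*, an RNA-binding relative of Fmr1 (0.90 and 0.79). *Mov10*, a helicase found with Argonaute, rose by 0.76 ± 0.169 (log2, SE; limma, adjusted p = 0.0037) and by 1.10 ± 0.169 (adjusted p = 0.00035), and *Tsn* and *Tsnax*, the subunits of the nuclease C3PO, were higher in both media. After quantile normalization *Tsn* missed the threshold in both (0.22, adjusted p = 0.096, and 0.21, 0.11), and with cytokines it also missed it without shRNA-NC+cytokines replicate 2 (0.06) or shRNA-*Ddx5*+cytokines replicate 1 (0.05). *Tnrc6b*, a GW182 scaffold that joins Argonaute to deadenylases, fell by 1.19 ± 0.128 in medium alone (adjusted p = 3.16e-05), and differed by -0.29 with cytokines (adjusted p = 0.0845), or by -0.44 (0.007) without shRNA-NC+cytokines replicate 1. *Tnrc6b* was named after its values had been seen. *Tnrc6a* and *Tnrc6c*, GW182 genes of the same list, did not pass in either medium. In medium alone they differed by 0.088 (limma, adjusted p = 0.505) and 0.025 (0.847), and with cytokines by 0.047 (0.737) and 0.20 (0.0997). Of 21 genes of deadenylation and decapping 3 were higher and 5 lower in medium alone and 2 higher and 4 lower with cytokines, among them the deadenylase subunits *Cnot1* and *Cnot6l* and the decapping cofactor *Dcp1a*, lower in both media, and the helicase *Ddx6*, higher in both (0.20 and 0.19) but by 0.015 and 0.10, with adjusted p of 0.89 and 0.27, after quantile normalization. The call of *Cnot1* with cytokines was lost without shRNA-NC+cytokines replicate 1 (0.073) or 3 (0.069) or shRNA-*Ddx5*+cytokines replicate 2 (0.083) or 3 (0.06), and that of *Dcp1a* in medium alone without shRNA-NC replicate 2 (0.051). *Piwil1*, *Piwil2* and *Piwil4*, the Argonaute relatives of the germ line, had at most 9 fragments in any library.

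**Figure D5:**
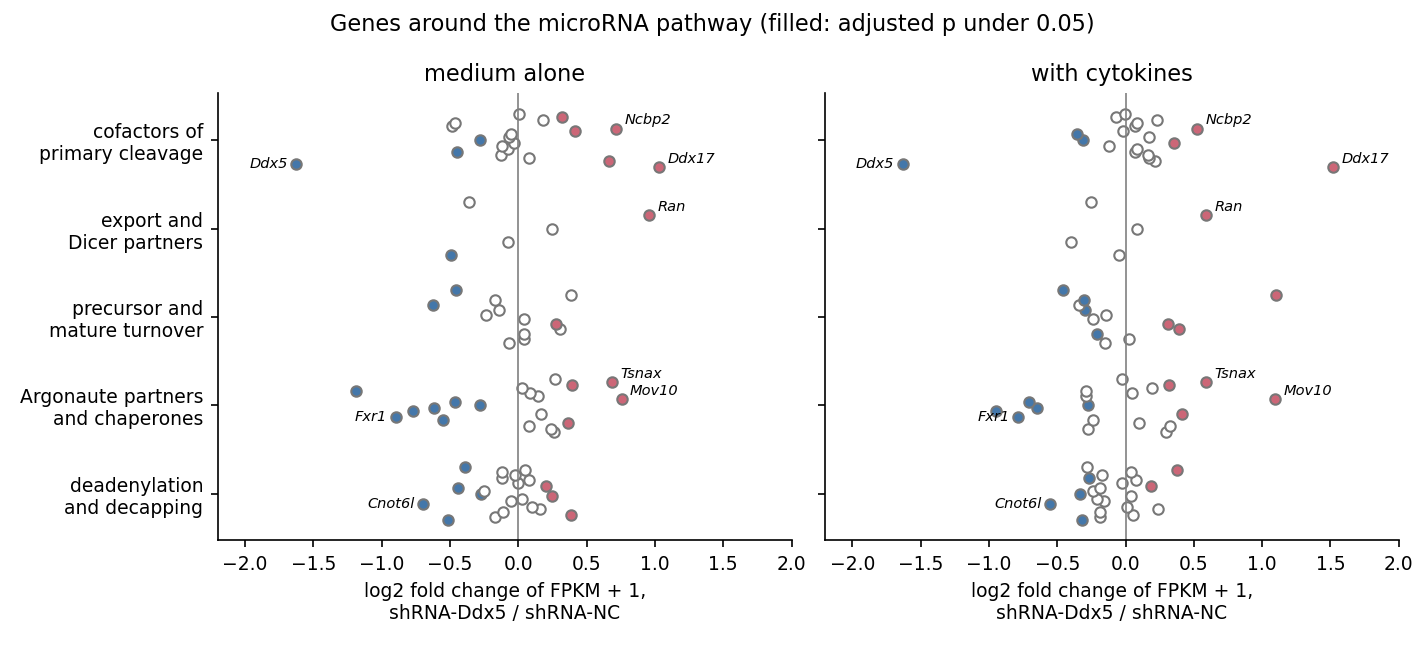
Log2 fold change of FPKM + 1, shRNA-Ddx5 over shRNA-NC, for each tested gene of 5 lists around the microRNA pathway, in medium alone (left) and with cytokines (right); filled points passed an adjusted p of 0.05, red higher and blue lower. Each list held genes on both sides of 0, with *Ddx5* (-1.63) and *Ddx17* (1.03 and 1.52) farthest out among the cofactors.

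The hairpin of miR-3064, the sequence shown first, lies inside *Ddx5* on its strand, at chr11:106673519-106673585 (GRCm39). In the GENCODE annotation of that build it lies within the exons of 0 of 19 coding transcripts of *Ddx5*: in 13 it touches an exon by a single base and in 6 it lies outside the exons, while 23 of all 55 transcripts hold it whole in an exon. The row of *Mir3064*, 67 bases long, had 233, 257 and 191 fragments in shRNA-NC and 34, 102 and 63 in shRNA-*Ddx5* libraries, and with cytokines 112, 155 and 129 against 55, 51 and 49. It fell by 1.80 ± 0.261 (log2, SE; limma, adjusted p = 0.000226) and by 1.16 ± 0.261 (adjusted p = 0.00387), beside falls of 1.63 for *Ddx5* in both media. Such fragments are longer than a microRNA and come from RNA of the host region.

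Of 1180 microRNA rows 42 had more than 3 fragments in at least 3 libraries, and 31 of these lay inside another gene on its strand. In medium alone 2 of the 42 were higher and 4 lower in shRNA-*Ddx5* cells, and with cytokines 0 were higher and 4 lower. Over all 87 microRNA rows that passed the filter on FPKM, many of them short rows with few fragments, 3 were higher and 5 lower in medium alone and 4 were higher and 5 lower with cytokines. For all genes tested the shares were 25.3% higher and 21.7% lower in medium alone, and 23.5% and 22.1% with cytokines. Over all microRNA rows the fragments came to 47.6 ± 1.54 per 1000000 fragments of the depth by which the FPKM were scaled (SD, n = 3) in shRNA-NC, 34.9 ± 2.21 in shRNA-*Ddx5*, 42.6 ± 7.81 in shRNA-NC+cytokines and 40.3 ± 0.814 in shRNA-*Ddx5*+cytokines. Without the row of *Mir3064* these values were 35.4 ± 1.74, 31.1 ± 2.27, 35.3 ± 7.07 and 37.1 ± 0.815, so that most of the difference in medium alone lay in this row.

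Host genes of other microRNAs moved in both directions. Of 25 named hosts 16 were tested, and 4 were higher and 4 lower in each medium. All genes together had 25.3% higher and 21.7% lower in medium alone, and 23.5% and 22.1% with cytokines. *Copz2*, the coatomer gene around miR-152, stood at 28.9, 32.2 and 39.0 FPKM in shRNA-NC and at 51.9, 49.1 and 52.2 FPKM in shRNA-*Ddx5* libraries, and with cytokines at 15.3, 20.6 and 18.0 FPKM against 44.0, 39.1 and 39.2 FPKM. It rose by 0.61 ± 0.121 (log2, SE; limma, adjusted p = 0.0018) and by 1.15 ± 0.121 (adjusted p = 2.5e-05). Its paralogue *Copz1*, around miR-148b with the same seed, rose by 0.31 ± 0.09 (adjusted p = 0.014) and by 0.25 ± 0.09 (adjusted p = 0.042). For *Copz1* quantile normalization gave 0.04 (adjusted p = 0.69) and 0.083 (adjusted p = 0.4), the first call was lost without shRNA-*Ddx5* replicate 3 (0.052), and the second was lost in 8 of 12 fits that each left out a library (adjusted p of 0.055 to 0.15). The hosts of the miR-15/16 family were lower in both media: *Smc4*, a condensin gene, stood at 67.8, 72.0 and 63.7 FPKM against 20.9, 43.7 and 30.8 FPKM in medium alone (-1.13 ± 0.209, adjusted p = 0.0012) and fell by 0.62 with cytokines (adjusted p = 0.032), a call lost without shRNA-NC+cytokines replicate 1 (0.1) or 3 (0.062) and without shRNA-*Ddx5*+cytokines replicate 1 (0.094) or 2 (0.1). The long noncoding *Dleu2* stood at 3.21, 2.70 and 2.59 FPKM against 0.826, 0.654 and 1.18 FPKM (-1.03 ± 0.126, adjusted p = 7.2e-05) and fell by 0.66 with cytokines (adjusted p = 0.0014). *Egfl7*, around miR-126, was lower in both media as well (-0.998 and -0.61), the second with an adjusted p of 0.051 to 0.11 in the 7 fits without a library that lost it. The rows of the hairpins themselves held at most 2 fragments in any library for these hosts.

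*Wwp2*, the host of miR-140, named after its values had been seen, stood at 26.8, 26.8 and 32.02 FPKM in shRNA-NC and at 39.8, 35.2 and 38.4 FPKM in shRNA-*Ddx5* libraries and rose by 0.40 ± 0.094 (log2, SE; limma, adjusted p = 0.00499), or by 0.25 (0.052) after quantile normalization. With cytokines it stood at 17.8 ± 1.53 against 20.3 ± 1.13 FPKM (SD, n = 3), a difference of 0.18 that did not pass (adjusted p = 0.137). Of 14 genes named as microRNA host genes 4 were tested. In medium alone 0 of them passed in limma, 1 had an unadjusted p under 0.05 (*Mir100hg*, adjusted p = 0.0627) and voom called 2. Of all genes 25.3% passed there as higher and 21.7% as lower. With cytokines *Mir17hg*, the transcript of the miR-17 to miR-92 cluster, was lower in shRNA-*Ddx5* cells (-1.03 ± 0.173, adjusted p = 0.000595), at 3.06 ± 0.3 against 7.40 ± 1.73 FPKM. *Mir155hg*, which is known to respond to inflammatory cytokines, had 0 to 4 fragments per library without cytokines and 18 to 41 with them. With cytokines it was higher in shRNA-*Ddx5* than in shRNA-NC cells (0.39 ± 0.121, adjusted p = 0.0207), a call lost with a pseudocount of 0.1 (0.13), with voom (0.091), with only the libraries compared (0.051) and without replicate 2 of shRNA-NC+cytokines (0.076) or of shRNA-*Ddx5*+cytokines (0.094). *Mir17hg*, *Mir155hg* and *Mir100hg* were named after their values had been seen.

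For each of the 7 genes that passed in some comparison, the genes most like it were found by the root mean square difference of centred log2(FPKM + 1) over 12 libraries. *Ino80c* and *Fars2* were closest to *Drosha* (0.0501 and 0.0545), *Clpx* and *Ric8b* to *Dgcr8* (0.0585 and 0.0642), and *Pcmt1* and *Srsf6* to *Xpo5* (0.0358 and 0.0442). *Rabep2* and *Pced1a* were closest to *Tarbp2* (0.0998 and 0.102). Among the Argonaute genes, *Tspan7* and *Snx29* were closest to *Ago1* (0.056 and 0.0616), *Wdfy3* and *Zfp827* to *Ago2* (0.0763 and 0.0785), and *Pura* and *Mdm4* to *Ago3* (0.0618 and 0.0667). None of these 14 closest genes was itself one of the 9, and no search was made for *Dicer1* or *Ago4*, the first of which passed in no comparison and the second of which was not tested.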

How the data were processed

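Poly(A) RNA of 12 libraries, 3 in each of 4 groups taken from the sample titles, was sequenced by the authors as paired ends, aligned with HISAT2 2.0.5 and counted per gene with featureCounts (1.5.0-p3 in the submitters' processing notes, another version in the methods). Strand use in counting is not given in the sources used here, so antisense overlaps cannot be told apart. The authors deposited 1 table of FPKM per gene. Their notes name mm10, but the coordinates of all 9 genes matched GRCm39, and only 2 of the 9 overlapped their RefSeq positions on GRCm38. FPKM times gene length gave whole fragments for 100% of values (within 0.01 fragment).

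Differences were fitted with limma 3.58.1 (R 4.3.3) on log2(FPKM + 1) over all 12 libraries with a mean-variance trend, for genes with at least 1 FPKM in at least 3 libraries, 12368 genes including 8 of the 9. P-values were adjusted by Benjamini-Hochberg over all genes tested, with a threshold of 0.05, and a fold change on this scale understates the change of low genes. The steps were tested on simulated data. Since FPKM are not counts, fragments entered only as an alternative (voom). Other alternatives were a pseudocount of 0.1, other filters, quantile normalization, the sum of fragments as denominator, a replicate block, only the libraries compared, no trend, and leaving out each library.

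The 9 genes and all lists were chosen with earlier results of these data known. Genes named from lists were up to 3 higher and 3 lower, called in the same direction in both media without overlap of the groups in either, by mean absolute log2 fold change, and others are said to be named after their values were seen. Sequences came from RefSeq tables for GRCm38.p6, where 8 of 9 genes had a promoter.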

Additional observations from a re-analysis of the deposited data

Results flagged for a closer look

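The rise of *Ddx17* after knockdown of *Ddx5* differed between the media. It was larger with cytokines by 0.494 on the log2 scale (limma interaction, adjusted p = 0.041), and *Ddx17* stood higher in all 6 shRNA-*Ddx5* libraries than in all 6 shRNA-NC libraries. Cytokines lowered *Ddx17* in shRNA-NC cells by 0.62 (adjusted p = 0.00046) and differed by -0.12 in shRNA-*Ddx5* cells (adjusted p = 0.36). The interaction missed the threshold without the filter (0.058) and without shRNA-NC replicate 1 (0.076) or 2 (0.1), shRNA-*Ddx5* replicate 2 (0.072) or 3 (0.094), or any 1 of the shRNA-*Ddx5*+cytokines libraries (0.086 to 0.1). In the same list of cofactors *Srsf3* passed in the opposite direction (-0.385, limma interaction, adjusted p = 0.0425), as did *Mest* among the hosts (-0.524, 0.0477). Both were named after their values had been seen. Of all genes 8.21% passed the interaction.

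*Tnrc6b*, named after its values had been seen, also had a different effect of the knockdown in the 2 media. The difference was 0.895 (log2, with cytokines minus in medium alone; limma interaction, adjusted p = 0.012). Its mean level fell between shRNA-NC and shRNA-*Ddx5* in medium alone, while in shRNA-NC cells it was lower with cytokines. With cytokines its knockdown difference was -0.29 (adjusted p = 0.0845), and -0.44 (0.007) without shRNA-NC+cytokines replicate 1. The interaction did not pass for the GW182 genes *Tnrc6a* (-0.042, limma, adjusted p = 0.898) and *Tnrc6c* (0.17, 0.46).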

How the results depend on the processing

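Across the alternatives none of the values changed sign after being called, and of the single-gene values 3983 kept their side of the threshold, 182 lost it and 74 gained it. The number of the 8 genes called was 2 for cytokines in shRNA-NC cells, and became 4 with the sum of fragments as denominator, 4 with voom, 1 with the replicate block, 1 with only the libraries compared, and 0 to 4 when a library was left out. For cytokines in shRNA-*Ddx5* cells it was 1, became 2 after quantile normalization, and lay between 1 and 2 without a library. For the knockdown it was 4 in each medium and lay between 4 and 6 in medium alone and between 2 and 4 with cytokines without a library, the lowest without shRNA-*Ddx5*+cytokines replicate 3. In medium alone it became 3 after quantile normalization, with the sum of fragments, with voom and with at least 1 FPKM in all 12 libraries. It became 5 there without the filter. With cytokines it became 3 after quantile normalization and with the sum of fragments. For the interaction it was 0 and lay between 0 and 1. The number of all genes called for the interaction was 1016 and lay between 559 and 1123 without a library. Averaged over all pairs of groups, same-numbered libraries did not deviate together (mean correlation -0.045, range -0.39 to 0.45), and the numbers were not taken as pairs. The pairs of groups differed in this. Between shRNA-NC and shRNA-*Ddx5* in medium alone the mean was 0.27 (0.043 to 0.45), against -0.14 for unlike numbers. Between shRNA-*Ddx5* and shRNA-NC+cytokines it was -0.27, against 0.13 for unlike numbers. With the replicate block 5452 and 5232 genes were called for the knockdown in place of 5817 and 5645, 3769 and 2902 for cytokines in place of 4181 and 3344, and 687 for the interaction. With it 4 and 4 of the 8 genes were called for the knockdown, 1 and 1 for cytokines and 0 for the interaction, where *Xpo5* lost its call in shRNA-NC cells (0.072) and *Ddx17* that of the interaction (0.076). The block also ended the knockdown calls with cytokines of *Egfl7* (0.052), *Ddx6* (0.055) and *Copz1* (0.056). The share of higher genes among calls was 42.2% for cytokines in shRNA-NC cells with the sum of fragments and 41.9% with voom, and 42.0% for the knockdown in medium alone with voom. Low fragment numbers limit what *Ago4* and the microRNA rows can show.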
